A study of Mus musculus with 38 samples.

Results

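Near-projecting neurons are a small class of excitatory neurons of the deep cortical layers, and they were followed here in single-nuclei RNA-seq of mouse cortex with and without Trim28. Members were chosen by their own UMI counts (a UMI is a molecular tag that counts 1 captured RNA molecule). A nucleus was kept with at least 8 UMIs of Tshz2 and Vwc2l together and at least 1 UMI of Slc17a8 and Trhr together. It was left out at 3 or more UMIs of the interneuron genes Gad1 and Gad2, of the thick-tufted layer 5 genes Chst8, Trpc7 and Npr3, or of the upper-layer genes Otof and Ccbe1, at 5 or more of the layer 4 gene Rorb, and at 6 or more of the corticothalamic genes Foxp2, Syt6 and Cpa6. The rule picked 143 of the 14296 nuclei.

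Trim28 is an epigenetic co-repressor, and the study asked what follows when it is deleted during cortical development. The nuclei came from the cortex of 4 mice that were 3 months of age. The 2 Trim28-KO animals (60 and 73) were Emx1-Cre +/- and Trim28-fl +/+. The 2 control animals (64 and 65) were Emx1-Cre +/- and Trim28-fl +/-, so the controls carried the Cre and had 1 excised allele. Emx1-Cre acts in the progenitors of cortical excitatory neurons, astrocytes and oligodendrocytes, and not in those of interneurons or microglia. Whole cortex RNA-seq was available for these 4 animals and for Trim28-KO animal 76 and control animal 77, of the same genotypes and age. One figure caption of the paper instead calls the controls of the whole cortex comparison Cre-negative, and the 2 accounts were not reconciled here.

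Near-projecting neurons lie in layers 5 and 6, extend short local axons rather than long-range tracts, and are told from their neighbours by Tshz2, a zinc finger transcription factor. Slc17a8 encodes the vesicular glutamate transporter VGLUT3, Trhr the receptor for thyrotropin-releasing hormone, Vwc2l a secreted von Willebrand factor C domain protein and Nxph3 a neurexophilin that binds neurexins. Trim28 is recruited to DNA by KRAB zinc finger proteins and brings with it the enzymes that deposit H3K9me3 at transposable elements.

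In the near-projecting nuclei of the Trim28-KO animals, 1 gene was higher and 4 genes were lower at an adjusted p under 0.05. Bglap3, a gene of the osteocalcin family, went from 0 and 1 UMI in the controls to 100 and 64 UMIs in the Trim28-KO animals. The genes that fell were Sgcz (zeta-sarcoglycan), Chrm2 (the M2 muscarinic acetylcholine receptor), Galntl6 (a member of the polypeptide N-acetylgalactosaminyltransferase family) and Col24a1 (a fibrillar collagen). The 4 markers of the class that were tested and had not been used by the rule did not pass.

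The start of Bglap3 is shown because it is the gene with the largest difference between the genotypes. Bglap3 lies on the minus strand of chromosome 3 in GRCm38, at chr3:88368616-88372743, and RefSeq gives it 3 start sites. In the windows of 300 bases around them (250 before and 50 after the start, build GRCm38.p6), 83.67%, 24% and 88% of the bases were soft-masked, the mark the reference uses for repeats. Of 32851 such windows, 5.869% were at least 50% soft-masked and the median was 7.667%. Among the 24 genes that rose, fell or came nearest to doing so, 15 had a window, and 1 of the 15, Bglap3, had one that was at least 50% soft-masked. The 250 bases before the outermost start, chr3:88372742-88372991, read 5′ to 3′ on the minus strand, are printed with capitals marking the longest run, of 50 bases, that also occurs in the window of the third start.
Bglap3 outermost start: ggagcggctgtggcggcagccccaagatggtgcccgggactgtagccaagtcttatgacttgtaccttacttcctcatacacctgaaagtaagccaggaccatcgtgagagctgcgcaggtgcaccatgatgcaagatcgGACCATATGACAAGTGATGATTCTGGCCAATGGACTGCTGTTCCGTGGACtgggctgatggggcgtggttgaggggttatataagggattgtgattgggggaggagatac
In all, 122 of the 250 bases (48.8%) lay in runs of at least 12 bases shared with the third window, and 0 in runs shared with the second. The UMIs do not say which start they came from.

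The 143 members were spread over the 4 animals as 35 nuclei in Trim28-KO 60, 33 in Trim28-KO 73, 50 in control 64 and 25 in control 65. They made up 0.921% of the nuclei of Trim28-KO 60 (95% exact Clopper-Pearson interval 0.643 to 1.28), 0.852% in Trim28-KO 73 (0.588 to 1.20), 1.43% in control 64 (1.06 to 1.88) and 0.799% in control 65 (0.518 to 1.18). The Trim28-KO animals lay close together and between the 2 controls, so the groups overlapped. Among nuclei thinned to 5000 UMIs they no longer did, at 0.808% and 1.025% in Trim28-KO against 1.84% and 1.029% in control animals, with Trim28-KO 73 and control 65 nearly equal. The mean share was 0.887% ± 0.0487 (SD, n = 2) in Trim28-KO and 1.11% ± 0.447 (SD, n = 2) in control animals, and the difference was smaller than the spread of the controls (two-sided exact permutation test, p = 1, smallest possible 0.33). Without control 64 the difference turned from -0.228 to 0.0882 percentage points. Intervals cover counting error only.

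Members had a lower median depth than other excitatory nuclei in every animal. The median was 7486, 8080, 8472.5 and 8983 UMIs per nucleus in Trim28-KO 60, Trim28-KO 73, control 64 and control 65, an order kept for all values in fours that follow. The other excitatory nuclei had medians of 10913.5, 10394, 11859 and 11129.5. These comparison nuclei, 8127 in all, had at least 5 UMIs of excitatory neuron genes, Slc17a7 and Arpp21 among them, fewer than 3 of Gad1 and Gad2, and were not members. Summed over members, the depth was 267817, 283265, 451722 and 225622 UMIs, so control 64 gave the deepest and control 65 the shallowest sum. All 143 members were within 3 median absolute deviations of the genes detected per nucleus, the filter of the study, against 13671 of all 14296 nuclei. No barcode was shared between members of different libraries.

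Most nuclei with enough Tshz2 and Vwc2l were turned away by the second condition. At least 8 UMIs of Tshz2 and Vwc2l were found in 136, 176, 129 and 170 nuclei, and 38, 35, 55 and 29 of these also held a UMI of Slc17a8 or Trhr. The other conditions then removed only a few nuclei. The first threshold fell in a gap: 1, 0, 1 and 0 members stood at 8 or 9 UMIs of Tshz2 and Vwc2l, 0, 0, 1 and 0 nuclei that met every other condition stood at 6 or 7, and the members' medians were 30, 33, 50 and 46. The second was met narrowly, with 22, 13, 21 and 11 members at exactly 1 UMI of Slc17a8 and Trhr.

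The nuclei that failed only the Slc17a8 and Trhr condition numbered 68, 102, 36 and 93. In them Mapk4 stood at 104, 297, 67.5 and 241 CPM (UMIs per 1000000 UMIs of the nuclei summed) and Nxph3 at 14.7, 5.22, 27 and 4.15 CPM. The animal with the fewest such nuclei, control 64, had the lowest Mapk4 and the highest Nxph3 among them.

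The label was checked on markers the rule had not used. Of the 7 further near-projecting markers on the list, 5 were higher in members than in other excitatory nuclei in every animal, 1 was lower and 1 was not detected. This is a description with no test, since the rule chose the nuclei on their RNA. Nxph3 stood at 37.3, 77.7, 42.1 and 44.3 CPM in members and at 1.61, 0.949, 2.37 and 2.72 CPM in other excitatory nuclei. Lypd1, a GPI-anchored modulator of nicotinic receptors, stood at 164, 145, 146 and 102 CPM in members and at no more than 16.2 CPM in the other nuclei. The remaining 3 that were higher were Met, the hepatocyte growth factor receptor, Rapgef3, an exchange factor activated by cyclic AMP, and Sla2, a Src-like adaptor.
Mapk4, an atypical MAP kinase on the same list, went against the label: members held 26.1, 17.7, 33.2 and 35.5 CPM and other excitatory nuclei 264, 271, 193 and 253 CPM. Cpne7 had 0 UMIs in both populations of every animal.

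The 4 genes that chose the nuclei gave the scale. Tshz2 stood at 3398, 3597, 4687 and 4100 CPM in members against 91.8, 106, 82.6 and 141 CPM in other excitatory nuclei. Vwc2l stood at 777, 1038, 1005 and 931 CPM against at most 37.0 CPM. Slc17a8 stood at 168, 194, 97.4 and 164 CPM against at most 1.01 CPM, and Trhr at 138, 131, 148 and 66.5 CPM against at most 0.774 CPM.

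**Figure D1:**
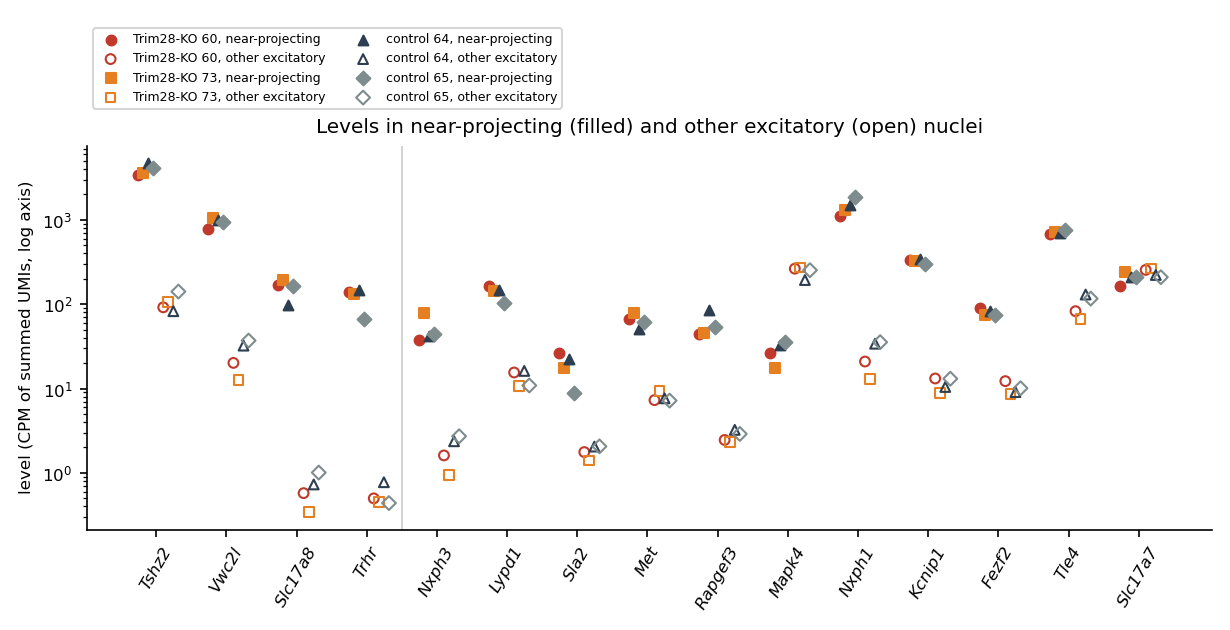
Level of near-projecting markers and other genes of these nuclei (CPM, log axis) in members and in other excitatory nuclei, 1 point for each of the 4 animals. Tshz2 lies at 3398 to 4687 CPM in members against 82.6 to 141 CPM in the other nuclei, and Mapk4 is the near-projecting marker that lies lower in members.

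Most genes on the list of deep-layer identity were also high. Fezf2, a transcription factor of deep-layer projection neurons, stood at 89.6, 74.1, 81.9 and 75.3 CPM in members against at most 12.2 CPM, and the corepressor Tle4 at 680, 713, 695 and 762 CPM. Sox5, Ldb2, Crym, Bcl11b and Etv1 also stood above the other excitatory nuclei in every animal. Bcl6, a transcriptional repressor on the same list, went the other way, at 0, 0, 2.21 and 0 CPM in members against 13.1, 16.5, 4.65 and 11.4 CPM. Tbr1, a transcription factor of layer 6 neurons, was lower in 3 of 4 animals, at 26.1, 10.6, 6.64 and 13.3 CPM against 15.2, 13.3, 16.7 and 14.6 CPM. Slc17a7, the main vesicular glutamate transporter of the cortex, was at 164, 244, 208 and 208 CPM, against 255, 265, 222 and 209 CPM in the other excitatory nuclei.

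Beyond the genes of the rule, the genes with the highest ratio to other excitatory nuclei were led by Nxph1, a secreted ligand of alpha-neurexins related to Nxph3, at 1105, 1296, 1510 and 1857 CPM against 20.9, 13.0, 34.0 and 35.5 CPM. The 20 highest also held the serotonin receptors Htr2c and Htr4, the neuropeptide S receptor Npsr1, the kainate receptor subunit Grik1, the glycine receptor subunit Glra2, the potassium channel interacting protein Kcnip1 (332, 325, 345 and 301 CPM), the presynaptic priming factor Unc13c and the glycosyltransferase Mgat4c (4074, 4699, 4713 and 3643 CPM). Htr2c varied most between animals, at 403, 237, 755 and 84.2 CPM, with both extremes in controls. At the other end, Chrm3, the M3 muscarinic receptor, stood at 70.9, 56.5, 53.1 and 124 CPM in members against 932, 917, 994 and 1228 CPM, and the synaptic organizer Lrrtm4, Cdh10 and Cntn5 were also among the genes with the lowest ratios.

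Some defining markers of other cell types were at or near 0. Gja1 and Aqp4 of astrocytes had 0 UMIs in the members of all 4 animals, and the interneuron genes Gad1 and Gad2, which the rule limits, had 0, 1, 0 and 0 and 0, 1, 2 and 0 UMIs. The 10 interneuron genes, Gad1 and Gad2 included, summed to 131, 109, 108 and 93.1 CPM in members. The other excitatory nuclei had 175, 162, 172 and 180 CPM. Sst, which the rule had not used, was the highest of the 10 in members of Trim28-KO 60, control 64 and control 65 (37.3, 35.4 and 35.5 CPM). The 7 astrocyte markers summed to 896, 850.8, 939 and 1299 CPM, nearly all of it Slc1a2 (870, 837, 881 and 1144 CPM), which stood at 431, 435, 418 and 492 CPM in the other excitatory nuclei. The 7 oligodendrocyte markers summed to 63.5, 208, 252 and 75.3 CPM and the 7 microglial markers to 82.1, 53.0, 64.2 and 53.2 CPM. The oligodendrocyte and microglial sums overlapped between the genotypes, whereas the astrocyte sum, and Slc1a2 and Slc4a4, the 2 astrocyte genes tested, lay below both controls in both Trim28-KO animals. Their part in the called genes was not tested beyond leaving out nuclei by limits on glial UMIs. The 6 layer 6 corticothalamic markers, which include the 3 genes the rule limits, were not near 0. They summed to 269, 244, 164 and 164 CPM in members against 84.8, 53.8, 170 and 148 CPM in other excitatory nuclei, most of it Foxp2 (213, 177, 111 and 115 CPM in members). The sum in members was higher in both Trim28-KO animals, and its part in the called genes was not tested. The 5 layer 6b markers summed to 56.0, 53.0, 142 and 102 CPM in members, from Svil and Ctgf with Cplx3, Nxph4 and Moxd1 at 0, against 5.29, 3.87, 34.3 and 19.2 CPM in other excitatory nuclei. This sum was lower in both Trim28-KO animals in both populations, and its part in the called genes was not tested. The endothelial and meningeal markers summed to 7.47, 0, 0 and 106 CPM, almost all from control 65. Mitochondrial genes took 0.172%, 0.157%, 0.0919% and 0.173% of the members' UMIs, lowest in control 64.

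Not every member held Slc17a8. A Slc17a8 UMI was found in 21, 29, 20 and 18 members, which is 60%, 87.9%, 40% and 72% of them. The others held Trhr UMIs alone and numbered 14, 4, 30 and 7. The share with Slc17a8 was highest in Trim28-KO 73 and lowest in control 64, and control 65 lay between the 2 Trim28-KO animals, so the genotypes overlapped. Nuclei that held Slc17a8 UMIs were deeper in every animal, with medians of 7829, 8125, 9016.5 and 9576 UMIs against 6863, 6613.5, 8472.5 and 7521 UMIs. The median member held 1, 2, 2 and 2 UMIs of Slc17a8 and Trhr together, so that a nucleus at 0 UMIs of Slc17a8 may still express it. The split was made by detection of UMIs. Whether the 2 sets hold different cells was not tested, and neither was the part of depth in the split.

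Other genes differed across this split, given here as a description with no test. Nxph1 stood at 1615, 1429, 2391 and 1949 CPM in nuclei with Slc17a8 and at 299, 196, 866 and 1556 CPM in those with Trhr alone, higher with Slc17a8 in every animal. Lypd1 ran the other way, at 85.3, 123, 83.9 and 75.2 CPM against 289, 327, 192 and 190 CPM, and so did Rapgef3, at 12.2, 39.6, 42.0 and 28.9 CPM against 96.4, 98.0, 119 and 133 CPM. The Trhr-alone nuclei of Trim28-KO 73 are only 4, so its values there rest on few molecules.

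**Figure D2:**
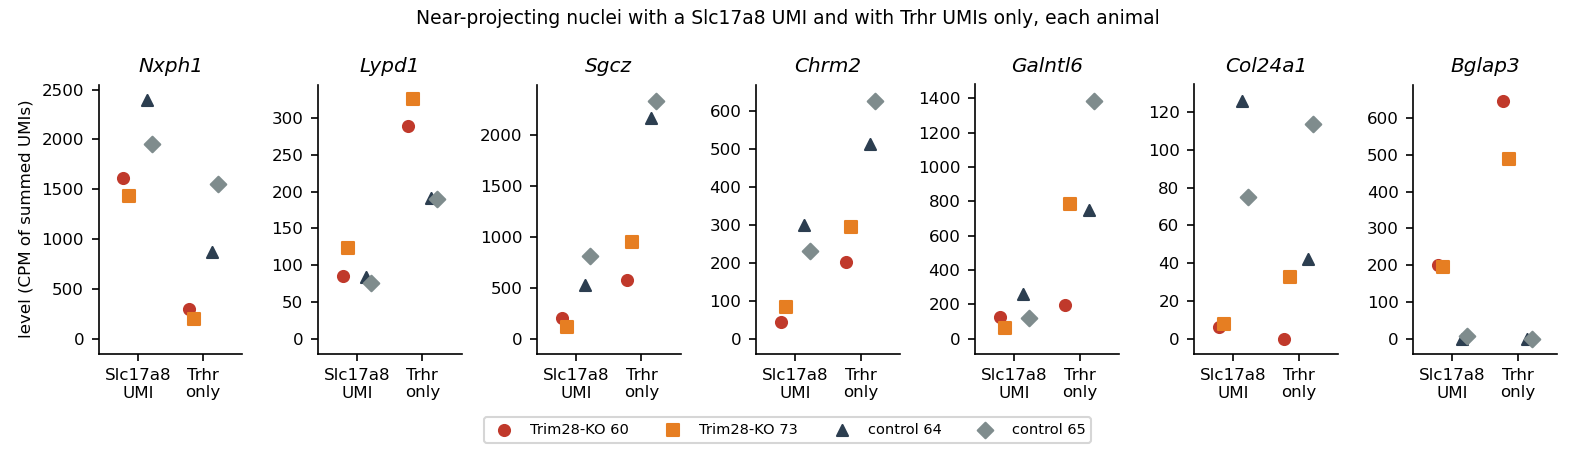
Level of selected genes (CPM) in members with a Slc17a8 UMI and in members with Trhr UMIs alone, 1 point per animal and set of nuclei. Nxph1 lies higher in the Slc17a8 nuclei of every animal, Lypd1 lies higher in the Trhr-alone nuclei, and Sgcz and Chrm2 lie lower in the Trim28-KO animals within both sets.

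The deleted gene was examined first. Trim28 had 3, 2, 2 and 2 UMIs over all members, too few to test. In the other excitatory nuclei it stood at 6.25, 6.79, 8.75 and 6.93 CPM, with the Trim28-KO animals just below the controls and no call (edgeR quasi-likelihood test, log2 fold change -0.31, adjusted p = 0.310). The libraries count tags near the 3′ end of the RNA and unspliced RNA too. Where the floxed exons lie is not given in the sources used here, so these tags check neither label. In whole cortex, read counts of Trim28 were 107, 165 and 112 in Trim28-KO 60, 73 and 76 and 575, 349 and 482 in control 64, 65 and 77. The groups were apart, and the log2 fold change was -1.39 ± 0.15 (SE; edgeR quasi-likelihood test, adjusted p = 3.78e-04).

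In near-projecting nuclei, 4941 genes had enough UMIs to be tested and 5 were called at an adjusted p under 0.05 (0.101%), with 1 higher (0.0202%) and 4 lower (0.081%) in Trim28-KO. An unadjusted p under 0.05 was reached by 443 genes, 229 higher (4.63%) and 214 lower (4.33%). With no filter on low counts, 14 of 15702 genes were called higher (0.0892%) and 45 lower (0.287%). The other excitatory nuclei had 1418 called of 16337 tested (8.68%), 764 higher (4.68%) and 654 lower (4%). In whole cortex, 223 of 16271 genes were called (1.37%), 142 higher (0.873%) and 81 lower (0.498%). In bulk tissue, fewer cells of a type and less RNA per cell cannot be told apart. The comparisons use the same animals, so their values stand side by side. They also differ in depth and kind of library, and the part of depth in these counts was not tested. DESeq2 called 4 genes in the near-projecting nuclei, Sgcz, Bglap3, Galntl6 and Chrm2. The near-projecting count moved with each animal, to 37 without Trim28-KO 60, 19 without Trim28-KO 73, 39 without control 64 and 64 without control 65, and the 5 genes stayed among them except 1 without control 64. That in other excitatory nuclei went to 871, 724, 3238 and 418 in the same order, and that in whole cortex to between 104 (without control 77) and 387 (without Trim28-KO 76).

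**Figure D3:**
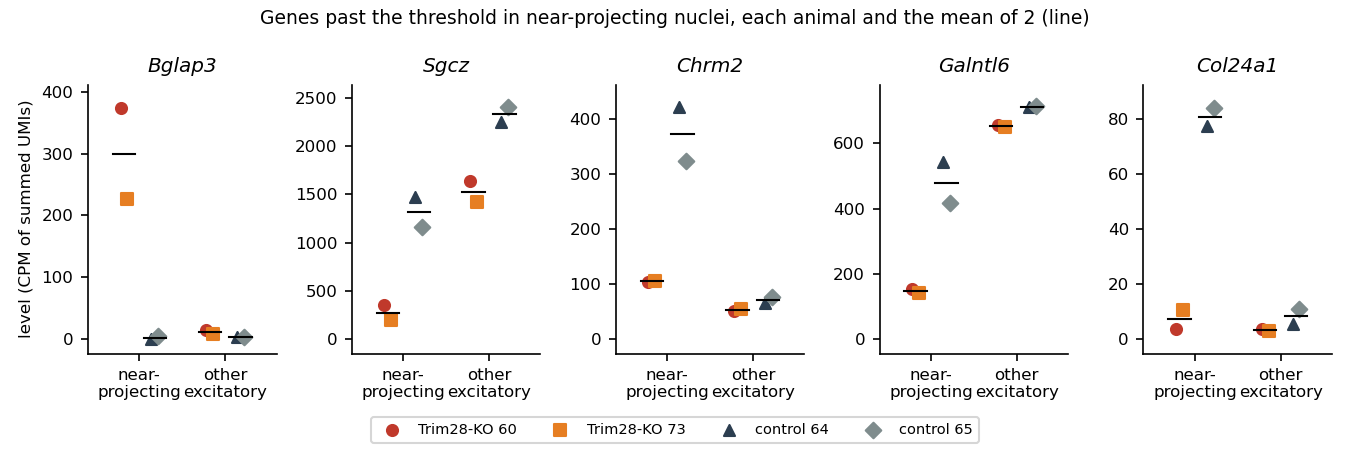
Level (CPM) of the genes called in near-projecting nuclei in near-projecting and in other excitatory nuclei, 1 point per animal and a line at the mean of the 2 animals of a genotype. For each of the 5 genes both Trim28-KO animals lie on the same side of both controls in near-projecting nuclei, as for Sgcz with 347 and 201 against 1474 and 1166 CPM.

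Bglap3 was the 1 gene called higher. Its level was 373 CPM in Trim28-KO 60, 226 CPM in Trim28-KO 73, 0 CPM in control 64 and 4.43 CPM in control 65, from 100, 64, 0 and 1 UMIs. The groups were far apart, and both Trim28-KO animals were well above the 3 counts that a count of 0 allows. Over all members, 164 UMIs in Trim28-KO against 1 in control gave a ratio of 202 per UMI sequenced, with a 95% exact interval of 35.7 to 8010 that covers counting error only. The fitted log2 fold change of 7.28 ± 0.617 (SE; edgeR quasi-likelihood test, adjusted p = 2.95e-04) depends on the prior count of the fit.

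The molecules were spread over several nuclei. A Bglap3 UMI was found in 19 of 35 members (54.3%) in Trim28-KO 60, 11 of 33 (33.3%) in Trim28-KO 73, 0 of 50 in control 64 (exact upper limit 7.11%) and 1 of 25 (4.00%) in control 65. In other excitatory nuclei the shares were 7.90%, 5.48%, 2.39% and 2.45%. In nuclei with at least 3 UMIs of Gad1 and Gad2, where Emx1-Cre does not act, they were 5.51%, 1.10%, 0% and 0.356%, at medians of 8981, 8736.5, 9852 and 9728 UMIs per nucleus. The near-projecting share thus stood above both populations in the 2 Trim28-KO animals. After thinning each nucleus to 5000 UMIs it was still 48.3% and 25.8%, against 4.97% and 3.03% in the other excitatory nuclei.

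**Figure D4:**
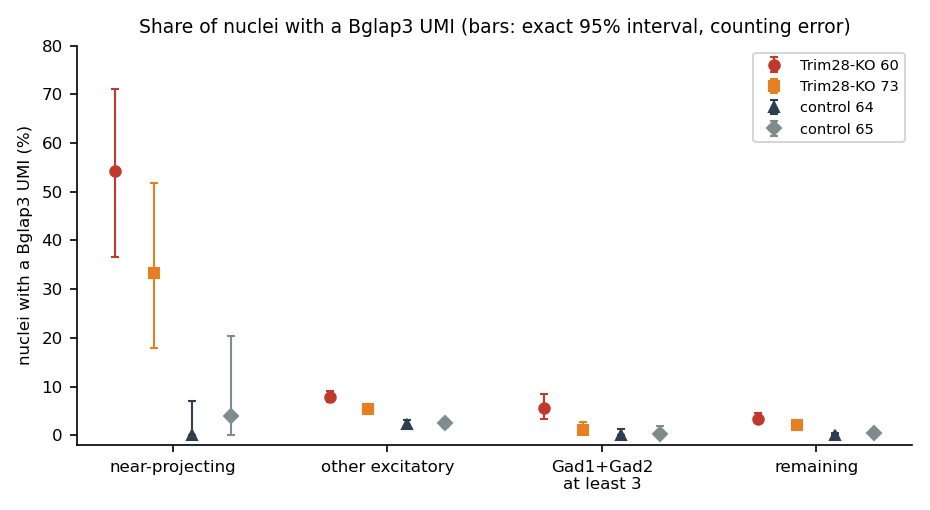
Share of nuclei with at least 1 Bglap3 UMI (percent, with 95% exact intervals) in near-projecting nuclei, other excitatory nuclei, nuclei with at least 3 UMIs of Gad1 and Gad2 and all remaining nuclei, 1 point per animal. Near-projecting nuclei of the Trim28-KO animals stand at 54.3% and 33.3%, and no other population drawn passes 7.90%. Nuclei with at least 6 UMIs of Foxp2, Syt6 and Cpa6 are counted within the other excitatory nuclei and not drawn apart.

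Bglap3 also rose in the other excitatory nuclei, from 2.46 and 2.54 CPM to 14.8 and 8.80 CPM (log2 fold change 2.19 ± 0.278 SE, edgeR quasi-likelihood test, adjusted p = 0.00839), and in whole cortex, from 1.89, 1.28 and 1.31 CPM to 12.9, 3.71 and 8.36 CPM (2.65 ± 0.398 SE, adjusted p = 0.00405). In all 3 measurements Trim28-KO 60 was above Trim28-KO 73. Its close relatives Bglap and Bglap2 had 0 UMIs in members. The neighbouring gene Smg5, a factor of nonsense-mediated decay, was called in neither direction, with 13, 25, 28 and 13 UMIs and a log2 fold change of 0.16 (adjusted p = 0.937). Within the members, Bglap3 was present in both kinds of nuclei of the Trim28-KO animals, at 201 and 194 CPM with Slc17a8 and at 646 and 490 CPM with Trhr alone.

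Sgcz was the gene with the smallest adjusted p among those that fell. This protein is a part of the sarcoglycan complex, which spans the plasma membrane, and its gene lies at chr8:37522298-38661508 on the minus strand. The level was 347, 201, 1474 and 1166 CPM, and both Trim28-KO animals were far below both controls. The log2 fold change was -2.30 ± 0.243 (SE; adjusted p = 0.00159). A UMI was found in 18 of 35, 8 of 33, 42 of 50 and 18 of 25 members. In other excitatory nuclei Sgcz started higher, at 2255 and 2403 CPM in controls, and fell less, to 1637 and 1417 CPM (log2 fold change -0.65, adjusted p = 0.0184). In whole cortex it did not pass (-0.58, adjusted p = 0.339). Sgcz is one of the genes the study had listed for excitatory nuclei, which include these, so its fall here is not independent evidence.

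Chrm2, which couples acetylcholine to inhibitory G proteins, lies at chr6:36388084-36528414 on the plus strand. It stood at 105, 106, 423 and 324 CPM. The 2 Trim28-KO animals were nearly equal and below both controls, with a log2 fold change of -1.87 ± 0.238 (SE; adjusted p = 0.00585). In other excitatory nuclei, at 51.4, 54.1, 65.5 and 76.7 CPM, it was -0.48 (adjusted p = 0.0531), and in whole cortex -0.52 ± 0.109 (SE; adjusted p = 0.0386), from 33.1, 29.7 and 28.1 CPM in control to 22.7, 19.1 and 14.3 CPM. The gene overlaps an antisense lincRNA, 9330158H04Rik. Without the 50 members screened out by limits on UMIs of glial genes, Chrm2 no longer passed (-1.60, adjusted p = 0.129). The limits were 5 UMIs for glial and 10 for astrocyte genes, and the screen took 8, 9, 19 and 14 members, more of them in controls. Most astrocyte UMIs in members were of Slc1a2, with Gja1 and Aqp4 at 0. The screen left 3585 genes to test, and the part of glial RNA in the lost call was not tested.

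Galntl6, at chr8:57774052-58912640 on the minus strand, stood at 153, 141, 542 and 417 CPM, with the groups apart. The log2 fold change was -1.74 ± 0.223 (SE; adjusted p = 0.00585), against -0.17 (adjusted p = 0.281) in other excitatory nuclei and -0.08 (adjusted p = 0.979) in whole cortex. Galntl6 was lower in nuclei with Slc17a8 (128, 63.3, 262 and 121 CPM) than in those with Trhr alone (193, 784, 747 and 1386 CPM), and within either set of nuclei the genotypes overlapped. In the Trhr-alone nuclei that overlap rests on 1 nucleus, since all 24 UMIs of Trim28-KO 73 came from 1 of its 4 such nuclei. With only the Slc17a8 nuclei it did not pass (-1.09, adjusted p = 0.131), nor with at least 2 UMIs of Slc17a8 and Trhr, where the fold was as large (-1.84, adjusted p = 0.370) and fewer genes were tested. The part of the split in its fall was not tested.

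Col24a1, at chr3:145292472-145552011 on the plus strand, had 1, 3, 35 and 19 UMIs, which is 3.73, 10.6, 77.5 and 84.2 CPM. Both Trim28-KO animals were near the limit of detection, and the log2 fold change of -3.42 ± 0.535 (SE; adjusted p = 0.0345) rests on those few molecules and depends on the prior count of the fit. Over all members the ratio of Trim28-KO to control was 0.0910 per UMI sequenced, from 4 against 54 UMIs (95% exact interval 0.0239 to 0.247, counting error only). The UMIs came from 1, 3, 21 and 11 nuclei. In other excitatory nuclei, where the gene is rare at 3.60, 2.85, 5.56 and 10.9 CPM, it also fell (-1.40, adjusted p = 0.0427). Without control 64 the call in members was lost at as large a log2 fold change (-3.47). DESeq2 did not make the call either, also at as large a value (-3.51, adjusted p = 0.230).

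For the other 3 genes that fell the pattern within members was as follows. Sgcz was lower in Trim28-KO in nuclei with Slc17a8 (201 and 111 against 524 and 810 CPM) and in nuclei with Trhr alone (578 and 947 against 2168 and 2335 CPM). Chrm2 was likewise lower in both, at 42.7 and 83.1 against 299 and 231 CPM and at 202 and 294 against 513 and 626 CPM. For these 2 genes, the groups did not overlap in either set of nuclei. The Sgcz value of Trim28-KO 73 with Trhr alone came from 29 UMIs in 1 of its 4 such nuclei. Col24a1 was lower in the Slc17a8 nuclei, at 6.09 and 7.91 against 126 and 75.2 CPM, and in the Trhr-alone nuclei it stood at 0, 32.7, 42.1 and 114 CPM.

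Genes close to the threshold are given as values that did not pass. Highest among them was Gm20711, a non-coding transcript, with 370, 325, 66.4 and 0 CPM (log2 fold change 3.00, adjusted p = 0.0510). Its 30 UMIs in control 64 set the 2 controls apart from each other. Gm20711 rose in the other excitatory nuclei, at 113, 72.3, 3.37 and 3.51 CPM (log2 fold change 4.71, adjusted p = 3.35e-04), and in whole cortex (4.51, adjusted p = 1.23e-05).

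Next were the neurotrophin-3 receptor Ntrk3, with 146, 91.8, 22.1 and 35.5 CPM (2.10, adjusted p = 0.0977), and Sh3d19, an SH3 domain protein, with 217, 98.8, 35.4 and 31.0 CPM (2.17, adjusted p = 0.0977). Auts2, a nuclear regulator linked to neurodevelopment, stood at 553, 512, 275 and 306 CPM (0.86, adjusted p = 0.163). The netrin receptor Unc5d stood at 448, 427, 155 and 284 CPM (1.04, adjusted p = 0.271). Pgrmc1, Slc25a4, Tuba1a, Stk10 and Gm13832 followed, with log2 fold changes of 1.20 to 1.85.

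On the lower side, Slc35f4, a predicted transporter, stood at 59.7, 67.1, 166 and 284 CPM (-1.78, adjusted p = 0.0818), and Antxr1, an anthrax toxin receptor that binds collagen, at 52.3, 17.7, 137 and 133 CPM (-1.98, adjusted p = 0.105). Ror1, a receptor tyrosine kinase of Wnt5a, had 2, 0, 27 and 14 UMIs (adjusted p = 0.0977). The contactin Cntn5 stood at 123, 102, 275 and 235 CPM (-1.21, adjusted p = 0.105) and the neurexin relative Cntnap5a at 377, 289, 660 and 585 CPM (-0.93, adjusted p = 0.162). A230006K03Rik, the splicing regulator Srrm4 and the adhesion protein Sdk1 completed the 12, all 3 below the controls in both Trim28-KO animals and none past the threshold.

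Gene groups were counted over members of lists. Of all 4941 genes tested, both Trim28-KO animals lay above both controls for 21.3% and below both for 17.6%, and the median log2 fold change was -0.0038. At an unadjusted p under 0.05 in edgeR, 229 of the 4941 were higher and 214 lower, and these counts stand beside each list that follows.

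Synaptic adhesion genes had 58 members, of which 44 were tested. None was called by edgeR and none by DESeq2, while 9 had an unadjusted p under 0.05 in edgeR and all 9 were lower in Trim28-KO, beside 214 of 4941 over all genes. With no filter on low counts 56 were tested and edgeR called 5 of them lower, beside 45 of 15702 over all genes. These were Cntn5, Cntnap2, Cntnap5a, Lsamp and Sdk1. Both Trim28-KO animals lay below both controls for 14 of the 44 and above for 4, and the list's median log2 fold change was -0.18. Those with the smallest p were Cntn5, Cntnap5a and Sdk1. The most abundant gene of the list, the receptor phosphatase Ptprd, stood at 11709.5, 11067, 11744 and 11967 CPM (-0.08, adjusted p = 0.935). Among the 9, the cell adhesion molecule Lsamp was the most abundant, at 2423, 3506, 4656 and 4317 CPM (-0.62, adjusted p = 0.406).

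Of 15 classical and type II cadherins 10 were tested and none was called by either tool, and 4 had an unadjusted p under 0.05, all lower, beside 214 of 4941 over all genes. With no filter on low counts all 15 were tested and edgeR called 2 of them, Cdh12 and Cdh18, both lower, beside 45 of 15702 over all genes. Both Trim28-KO animals lay below both controls for 3 of the 10 and above for 0, with a median of -0.31. Cdh18, the most abundant of the 4 at 2054, 2210, 2552 and 3679 CPM, was -0.56 (adjusted p = 0.423). Of 42 axon guidance receptors and ligands 27 were tested and none was called by either tool, with a median of -0.26. At an unadjusted p under 0.05, 2 were higher (Unc5d and Slit1) and 1 lower (Robo1), beside 229 and 214 of 4941 over all genes. Both Trim28-KO animals lay below both controls for 7 of the 27 and above for 2. With no filter on low counts 41 were tested and 1, Unc5d, was called higher, beside 14 of 15702 over all genes. The most abundant, the netrin receptor Dcc, stood at 3252, 3693, 3403 and 3936 CPM (-0.10, adjusted p = 0.910). Of 11 non-clustered protocadherins 7 were tested and none was called by either tool. At an unadjusted p under 0.05, 2 were lower (Pcdh10 and Pcdh15), beside 214 of 4941 over all genes.

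Receptors were mostly not called. Of 33 neuromodulator and peptide receptors 8 were tested, and 1, Chrm2, was called lower, beside 4 of 4941 over all genes. With no filter on low counts 25 were tested and 1, again Chrm2, was called lower, beside 45 of 15702 over all genes. Of 24 glutamate receptor genes 21 were tested and none was called by either tool. Both Trim28-KO animals lay below both controls for 7 of the 21 and above for 2, with a median of -0.20. The most abundant, the metabotropic receptor Grm7, stood at 2513, 2630, 3026 and 2801 CPM (-0.20, adjusted p = 0.765). The AMPA receptor subunit Gria1 stood at 635, 505, 414 and 337 CPM (log2 fold change 0.56, unadjusted p = 0.0154) and Grm4 and Grm3 were lower at an unadjusted p under 0.05. Of 13 GABA-A receptor subunits 11 were tested and none was called by either tool, with Gabrg3 as the most abundant (3013, 2510, 2800 and 2309 CPM, log2 fold change 0.09). At an unadjusted p under 0.05, 2 were lower, among them Gabrb1, beside 214 of 4941 over all genes. Both Trim28-KO animals lay below both controls for 4 of the 11 and above for 2.

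Ion channels gave no call with either tool. Of 29 voltage-gated potassium channel genes 21 were tested, and 1, the auxiliary subunit Kcnab1, had an unadjusted p under 0.05 (250, 215, 418 and 279 CPM, log2 fold change -0.64). Of 22 sodium and calcium channel genes 20 were tested, and 2 had an unadjusted p under 0.05, Cacna2d3 higher (0.82) and Cacnb2 lower (-0.54).

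Identity genes were not called. Of the 10 deep-layer transcription factors and layer 5 genes 8 were tested, and 1, the ETS factor Etv1, reached an unadjusted p under 0.05 (422, 314, 567 and 443 CPM, -0.50, adjusted p = 0.526). Of the 7 near-projecting markers the rule had not used 4 were tested, and none had an unadjusted p under 0.05.

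Among 28 Trim28 corepressor and heterochromatin genes 17 were tested and none was called by either tool. Its one member with an unadjusted p under 0.05, Cbx5, which encodes the heterochromatin protein HP1-alpha, had 16, 25, 16 and 8 UMIs (1.03, unadjusted p = 0.0171). Of 47 imprinted genes 19 were tested and none was called by either tool. At an unadjusted p under 0.05, 2 were higher (Inpp5f and Gnas) and 1 lower (Copg2), beside 229 and 214 of 4941 over all genes. Of 28 activity-induced genes 5 were tested, with 0 called by either tool and 0 at an unadjusted p under 0.05. Of 40 innate sensors and interferon-stimulated genes 2 were tested, with 0 called by either tool and 0 at an unadjusted p under 0.05, so that nearly all of this list was below the depth of these nuclei. Of 12 stress genes 4 were tested, none was called by either tool, and both Trim28-KO animals lay above both controls for 3. The chaperone Hspa8 stood at 112, 77.7, 55.3 and 26.6 CPM (1.04, unadjusted p = 0.0175) and Hsp90ab1 at 127, 102, 62.0 and 84.2 CPM (0.67, unadjusted p = 0.0401). Malat1, the most abundant nuclear RNA, stood at 72904, 73196.5, 66364 and 48949 CPM and the mitochondrial mt-Cytb at 295, 321, 128 and 257 CPM, both above the 2 controls in both Trim28-KO animals and neither called (adjusted p = 0.725 and 0.477). Their part in the called genes was not tested.

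Of the 10 genes the study had listed for excitatory nuclei all 10 were tested. One, Sgcz, was called lower, beside 4 of 4941 over all genes. The list was chosen on these animals and is not independent evidence. Tmem132d stood at 70.9, 63.5, 151 and 151 CPM (-1.18, adjusted p = 0.224), next to -1.17 in the other excitatory nuclei (adjusted p = 0.00373). With no filter on low counts 3 of the 10 were called lower in members, Sgcz, Tmem132d and Cdh18, beside 45 of 15702 over all genes.

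Genes at loci known from other experiments of the series were too rare in members to pass the filter on low counts. With no filter 6 of them were tested and 1, She, was called higher, beside 14 of 15702 over all genes. The list summed to 29, 23, 9 and 4 UMIs. Most of its genes had 0 UMIs or nearly so in members, among them Fbxw14, Fbxw15, Fbxw19, BC048671, Vmn1r210, Vmn1r211 and Abhd12b with 0 in all 4 animals, and Slc44a5 held 6 and 4 UMIs in the controls. The 3 genes that follow were picked after their values were seen. She, an adaptor with an SH2 domain, had 10, 8, 1 and 0 UMIs, a ratio of 22.1 per UMI sequenced (95% exact interval 3.49 to 922, counting error only). In other excitatory nuclei it had 364, 270, 2 and 1 UMIs, with a fitted log2 fold change of 7.35 (adjusted p = 3.35e-04). Mnd1, a meiotic recombination factor, had 8, 3, 0 and 0 UMIs and the axon guidance protein Draxin 2, 4, 0 and 0 UMIs in members. Both rose in the other excitatory nuclei (log2 fold changes 3.20 and 4.94).

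The effect of Trim28 loss was then compared directly between the near-projecting and the other excitatory nuclei of the same animals (edgeR interaction of population and genotype, animal as a block). Of 4941 genes 20 were called (0.405%). Of these, 15 had a difference above 0 (0.304%) and 5 below 0 (0.101%), where the narrower comparison given below had 9 and 25. One of the 20, Foxp2, is a gene of the rule and is not read. The count was 49 without Trim28-KO 60, 8 without Trim28-KO 73, 25 without control 64 and 56 without control 65. Most of the other genes among the 20 passed the test in the other excitatory nuclei and not in the members.

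Sgcz, Galntl6 and Chrm2 fell more in near-projecting nuclei, with differences in log2 fold change of -1.71 ± 0.212, -1.62 ± 0.224 and -1.46 ± 0.260 (SE; adjusted p = 5.27e-04, 6.06e-04 and 0.00895). Bglap3 rose more, with a difference of 5.38 ± 0.898 (SE; adjusted p = 0.00460), although the controls had 0 and 1 UMI. For Col24a1 the difference was -2.25 ± 0.836 (SE) and did not pass (adjusted p = 0.446). The call of the Chrm2 difference was lost without Trim28-KO 73, at a similar size (-1.43), and without control 64, at a smaller one (-1.08). That of Bglap3 was lost in 4 of 5 alternatives. The Bglap3 difference was 5.32 without Trim28-KO 60, 5.35 without Trim28-KO 73 and 3.87 without control 64. Against the nuclei with at least 6 UMIs of Foxp2, Syt6 and Cpa6 it was 3.635 (adjusted p = 0.841).

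Auts2 differed by 1.23 ± 0.190 (SE; adjusted p = 0.00210), between 0.86 in near-projecting and -0.42 in other excitatory nuclei, neither of which passed on its own. Ntrk3 differed by 1.96 and Unc5d by 1.07, with values near 0 in the other excitatory nuclei (0.09 and -0.08). Ntrk3 no longer passed without Trim28-KO 60 (difference 1.513) or without control 64 (1.681). Unc5d passed in 2 of 5 alternatives, and its difference ran from 0.3338 to 1.314 over the 5.

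A second group fell in the other excitatory nuclei while its values in near-projecting nuclei did not pass. The lipid phosphatase Inpp4b stood at 459, 413, 328 and 279 CPM in members and at 31.7, 26.4, 64.7 and 50 CPM in the other nuclei (difference 1.49 ± 0.198 SE, adjusted p = 5.27e-04). The heparan sulfate sulfotransferase Hs3st4 stood at 2233, 1504, 1897 and 2026 CPM in members and at 345, 267, 665 and 706 CPM in the other nuclei (1.06 ± 0.164 SE, adjusted p = 0.00210, but 0.39 and adjusted p = 0.602 against the nuclei with at least 6 UMIs of Foxp2, Syt6 and Cpa6). Unc13c, the semaphorin Sema5a, Zmat4, Rai14, Cdh18, the serotonin receptor Htr1f and Igsf21 had the same form, with log2 fold changes of -1.60 to -0.76 in the other excitatory nuclei. Spred2 and Cdyl2 had differences of -1.37 and -1.36, at 1.09 and 0.80 in the other excitatory nuclei.

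The share of comparison nuclei with many corticothalamic UMIs moved with these values. Nuclei with at least 6 UMIs of Foxp2, Syt6 and Cpa6 made up 4.82% and 2.57% of the other excitatory nuclei in Trim28-KO and 12.1% and 9.67% in control animals. Foxp2 itself was lower in the other excitatory nuclei of the Trim28-KO animals (log2 fold change -1.35, adjusted p = 0.0189). Whether the share fell through fewer such nuclei or fewer Foxp2 UMIs per nucleus was not tested. Set against those 553 nuclei alone, 34 genes were called, 9 with a difference above 0 and 25 below, and 10 were among the 20. The Unc13c difference went to -0.0041 ± 0.207 (SE; adjusted p = 0.999), no detectable difference. Against those nuclei, Sgcz, Inpp4b, Galntl6, Auts2, Chrm2, Ntrk3, Sema5a and Spred2 passed. The call was lost for Hs3st4 (0.39, adjusted p = 0.602), Cdh18 (0.22, adjusted p = 0.841), Unc5d (0.33, adjusted p = 0.848), Rai14 (1.15, adjusted p = 0.121), Zmat4 (0.81, adjusted p = 0.111), Htr1f (0.76, adjusted p = 0.270), Cdyl2 (-1.05, adjusted p = 0.213), Igsf21 (1.77, adjusted p = 0.172) and Bglap3 (3.63, adjusted p = 0.841).

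Many of these calls were lost with 1 animal left out, a fit that leaves 1 group with 1 animal. The differences kept their direction in these fits. Sgcz, Inpp4b, Galntl6, Auts2 and Hs3st4 passed whichever animal was left out. Sema5a did not pass without Trim28-KO 73 (difference 1.695) or without control 64 (1.745), against 1.80 with all animals. Spred2 did not either, at -1.051 and -1.089 against -1.373. The calls of Rai14 and Cdh18 were lost in the same 2 alternatives. Rai14 stood at 1.178 and 1.428 against 1.808, and Cdh18 at 0.6751 and 0.7175 against 0.9731. Htr1f and Igsf21 passed only without control 65. Their differences ran from 0.7627 to 1.057 and from 1.765 to 2.692 over all 5 alternatives. The calls of Unc13c and Zmat4 were lost without Trim28-KO 73, at 1.493 against 2.008 and at 1.039 against 0.9677. That of Cdyl2 was lost without Trim28-KO 73 and without control 65, and its difference ran from -1.541 to -1.055 over all 5 alternatives.

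**Figure D5:**
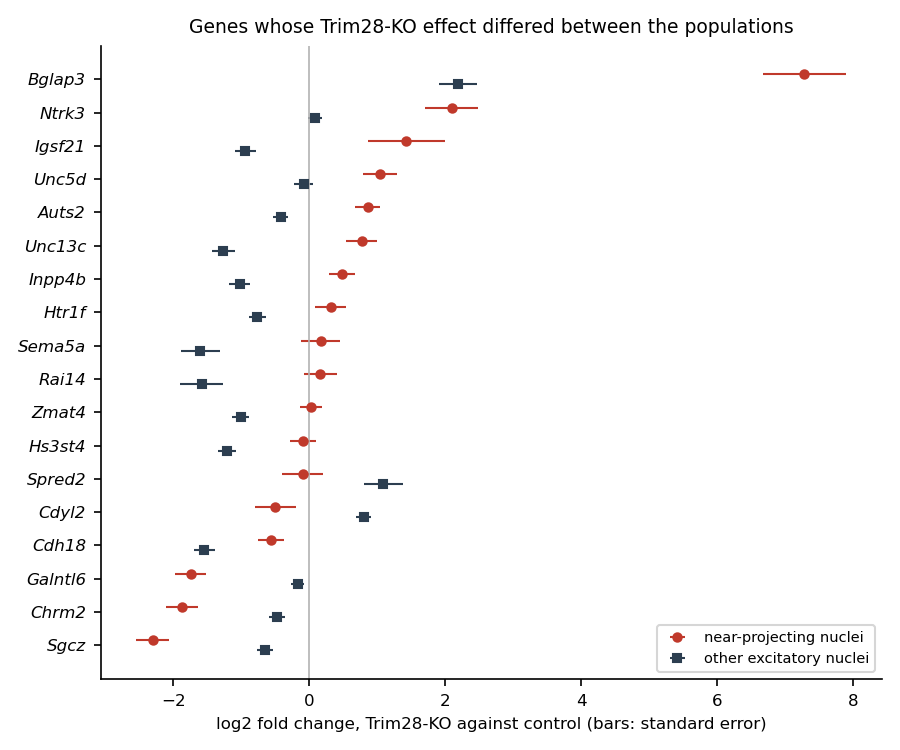
Log2 fold change, Trim28-KO over control, in near-projecting and in other excitatory nuclei for genes whose effect differed between the populations, with SE bars. Sgcz, Galntl6 and Chrm2 lie lower in near-projecting nuclei, and genes such as Hs3st4 and Inpp4b lie below 0 in the other excitatory nuclei.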

How the data were processed

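Single nuclei of the cortex were sorted by FACS (8500 per animal) and run on the 10x Chromium 3′ platform. The authors aligned reads with Cell Ranger 3.0 to mm10 with a pre-mRNA reference and deposited UMI counts per gene and barcode. For whole cortex the authors deposited read counts from STAR 2.6.0 on GRCm38.p6 and stranded featureCounts (Subread 1.6.3). All deposited barcodes entered the rule and no doublet caller was run. UMIs were summed per animal, since the animal and not the nucleus is the replicate. edgeR 4.0.16 (R 4.3.3; filterByExpr, TMM, quasi-likelihood test, Benjamini-Hochberg over all genes tested) was the main test and gave every adjusted p not credited otherwise, with DESeq2 1.42.0 as an alternative. SE was the log2 fold change over the square root of F. CPM are per 1000000 UMIs or reads summed, without TMM. The scripts were tested on simulated data. Intervals are 95% exact Clopper-Pearson, and for a ratio of counts the exact conditional interval. With 2 animals per group, the precision of each value is limited by their number. The members, gene lists and tests were chosen with earlier results of these data known. Genes named are those called, filled up to 12 per direction by smallest p, the 20 highest marker ratios among genes of at least 50 CPM, and members of lists, of which those with an unadjusted p under 0.05 were picked after their values were seen. Positions are from GENCODE vM21. TE counts per nucleus were not analysed here. Some genes that met the naming rule are not reported here.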

Additional observations from a re-analysis of the deposited data

Results flagged for a closer look

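Each gene named here drew notice because the effect of Trim28 loss differed between near-projecting and other excitatory nuclei of the same animals (edgeR interaction test, adjusted p under 0.05). Differences are given as near-projecting minus other excitatory log2 fold change. Below 0 were Sgcz (-1.71), Galntl6 (-1.62), Chrm2 (-1.46), Spred2 (-1.37) and Cdyl2 (-1.36). Above 0 were Bglap3 (5.38), Igsf21 (2.34), Unc13c (2.01), Ntrk3 (1.96), Rai14 (1.81), Sema5a (1.80), Inpp4b (1.49), Auts2 (1.23), Unc5d (1.07), Hs3st4 (1.06), Htr1f (1.04), Cdh18 (0.97) and Zmat4 (0.97). Foxp2 also passed but helped to choose the nuclei. Sgcz, Inpp4b, Galntl6 and Auts2 passed under all 5 alternatives run for this comparison. Igsf21 rests on few UMIs, at 44.8, 38.8, 11.1 and 22.2 CPM in members. The share of nuclei with at least 6 UMIs of Foxp2, Syt6 and Cpa6 in the comparison population was lower in both Trim28-KO animals. With those nuclei alone as the comparison, Sgcz, Galntl6, Chrm2, Spred2, Ntrk3, Sema5a, Inpp4b and Auts2 passed, Unc13c went to -0.0041 ± 0.207 (SE), and the other genes named here kept their direction and no longer passed.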

How the results depend on the processing

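With 2 animals per group and 25 to 50 members per animal, the depth limits the test to 4941 of 27998 genes. All 143 members were within 3 MADs, so that filter repeats the main fit and is no separate check, though the tallies below include it. The count of 5 genes called in near-projecting nuclei stayed at 4 to 6 with DESeq2, RLE factors, total UMI scaling and stricter thresholds of the rule. It also did with at least 10 UMIs in every animal and without nuclei screened out for glial UMIs. It was 59 with no filter on low counts, where 15702 genes were tested, 41 with only nuclei that held a Slc17a8 UMI (4 shared; 3533 tested) and 19 to 64 leaving out each animal, where the lone sample is assumed to vary like the other group. Total UMI scaling and the Slc17a8 nuclei were chosen after seeing the data. Where the count stayed at 4 to 6, the genes were not all the same. Of the 5 genes, 3 were shared with at least 2 UMIs of Slc17a8 and Trhr. The same number was shared without glial-screened nuclei and with at least 10 UMIs in every animal, where Bglap3 and Col24a1 were not tested. The other settings shared 4 or 5. The differences between populations numbered 34 against the Foxp2, Syt6 and Cpa6 nuclei and 8 to 56 leaving out each animal. Calls in other excitatory nuclei ranged from 418 to 3238 and in whole cortex from 104 to 387 leaving out each animal, and were 1772 and 280 with DESeq2. The difference in the share of near-projecting nuclei ranged from -0.543 to 0.0882 percentage points leaving out each animal, and reversed without control 64. It was -0.518 at 5000 UMIs per nucleus, where the groups did not overlap (exact permutation p = 0.33). The Unc13c difference reversed in sign to -0.0041, within its SE of 0.207, with the other comparison nuclei. Bglap3 passed in 13 of 13 alternatives that tested it and Sgcz in 14 of 14. Chrm2 passed in 13 of 14, Galntl6 in 12 of 14 and Col24a1 in 8 of 12. Col24a1 kept a fold change of similar size with total UMI scaling (log2 -3.38, adjusted p = 0.0559) and at least 2 UMIs of Slc17a8 and Trhr (-3.65, adjusted p = 0.137). Gm20711, just short of the threshold, passed with at least 12 UMIs of Tshz2 and Vwc2l (log2 2.82, edgeR adjusted p = 0.0334). It also passed without glial-screened nuclei (3.765, adjusted p = 1.46e-04), with no filter and with only the Slc17a8 nuclei. It did not with DESeq2 (3.33, adjusted p = 0.999), RLE factors, total UMI scaling or at least 2 UMIs of Slc17a8 and Trhr. Of the values for single genes, 311 kept their side of the threshold, 58 came to pass it, 45 no longer did and 1 reversed.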
